A study of Mus musculus with 9 samples.

Results

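The genes described here are 59 cyclins, cyclin-dependent kinases (CDKs), CDK inhibitors, E2F transcription factors and their close regulators. They were chosen by name, and all 59 were found among the 55471 gene identifiers of the count files. The RNA came from mouse OT-I CD8+ T cells, whose transgenic receptor recognises an ovalbumin peptide. Cells of the 4 control libraries were Bdh1-WT with an shRNA against firefly luciferase (shCtrl), and those of the 5 DKO libraries were Bdh1-KO with an shRNA against Oxct1 (shOxct1). Both genes encode enzymes of ketone body use. Cells of both groups were activated in culture on antibodies to CD3 and CD28 with IL-2, transduced, sorted on the Ametrine reporter and moved into C57BL/6 hosts of another CD45 type. The hosts were infected 1 day later with LmOVA, a Listeria strain that makes ovalbumin, and donor cells were sorted from the spleen on day 7. The labels give no age, do not describe the Bdh1 allele, and do not say whether the libraries of a group came from separate donors or hosts, so the p-values measure only the spread between these libraries. The study asks what the loss of ketolysis does to effector T cells, and the question here is which parts of the cell cycle machinery differ in RNA level.

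Cyclins are the regulatory subunits that switch CDKs on. D type cyclins with CDK4 and CDK6, and then E type cyclins with CDK2, phosphorylate the retinoblastoma family of pocket proteins in G1, which frees E2F factors to drive the genes of DNA replication. Cyclin A with CDK2 and CDK1, and cyclin B with CDK1, then carry the cell through S phase, G2 and mitosis. CDC25 phosphatases, WEE1 and PKMYT1 set the time. Many of these late genes are held silent in resting cells by the DREAM complex and are switched on by B-MYB and FOXM1. Effector CD8+ T cells divide fast early in an infection and slow down as the pathogen is cleared.

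Of the 59 genes, 10 were higher in DKO in edgeR's quasi-likelihood test at an adjusted p of 0.05, and 0 were lower. Over all 14918 genes tested, 2.83% passed this threshold, 1.32% in the higher and 1.51% in the lower direction. The 10 were the S, G2 and M phase genes Ccna2, Ccnb2, Cdk1, Cks1b, Mybl2 and Cdkn3, the D type cyclin genes Ccnd2 and Ccnd3, the CDK inhibitor gene Cdkn2c, and the antiproliferative gene Btg2. All 14 S, G2 and M phase members had a log2 fold change above 0, from 0.36 to 1.57, while the 12 cyclins and CDKs of transcription lay between -0.08 and 0.18. The number of genes with an unadjusted p under 0.05 and a higher level in DKO was 29 of the 59, against 7.74% of all tested genes, while 0 were lower, against 8.25%. DESeq2's Wald test called 19 of the 59 as higher and 0 as lower, where it called 6.52% of all genes it tested, 3.14% as higher. Of the 58 tested members 42 had a log2 fold change above 0, as had 48.6% of all tested genes. The libraries of the groups did not overlap for 17 members, all higher in DKO, against 8.71% of all genes, 4.62% higher and 4.09% lower. Ccnd1, with 75 counts over all libraries, was the only member below the count filter. In bulk RNA, more cells in a phase and more RNA per cell cannot be told apart.

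**Figure D1:**
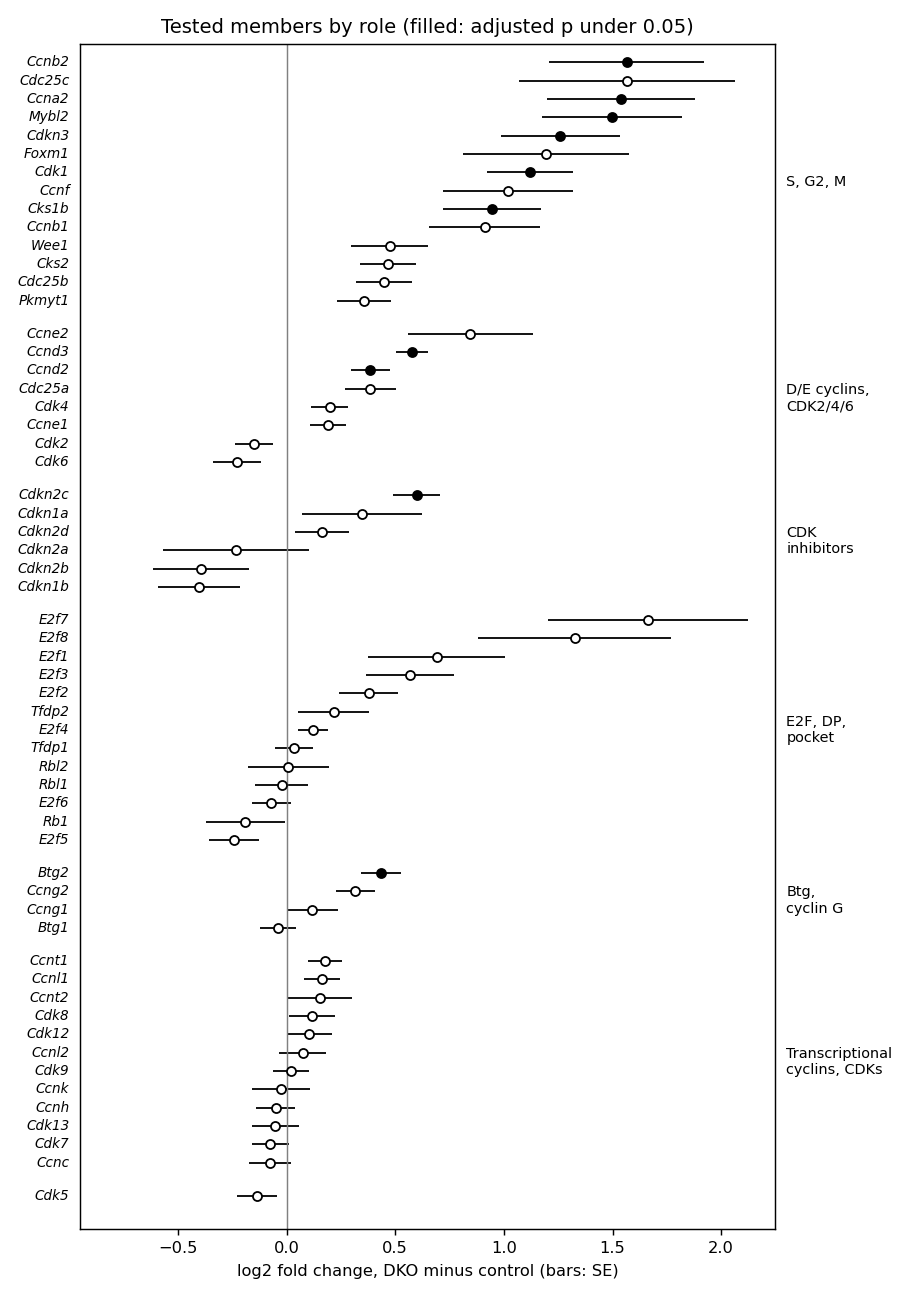
Log2 fold change (DKO minus control, x axis) of the 58 tested members by role, with bars for the SE; filled points passed an adjusted p of 0.05 in edgeR over all genes. All 14 S, G2 and M phase members lie above 0, and the transcriptional cyclins and CDKs lie between -0.08 and 0.18.

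Counts in genes ranged from 45205993 to 59853080 per library. Levels are given as CPM, counts per 1000000 counts of the scaled library total. The targeted genes followed the labels. Oxct1 averaged 63.2 ± 5.73 CPM over the control libraries (SD, n = 4) and 5.16 ± 0.370 CPM over the DKO libraries (SD, n = 5), and Bdh1 averaged 30.5 ± 4.17 and 10.6 ± 1.24 CPM. The value of control replicate 1 was -79.1 on the first principal component of log2 CPM, where the other libraries lay between -7.25 and 23.5, and 16.7% of its reads were unmapped. Control replicate 3 lay at -70.2 on the second component, where the others lay between -5.59 and 20.2. The 7 CD8 T cell markers all exceeded 1 CPM on average and summed to 9907 ± 318 (control) and 8858 ± 425 (DKO) CPM, and the 10 myeloid markers to 176.4 ± 15.1 (control) and 117.6 ± 3.92 (DKO) CPM. Both sums had an exact permutation p of 0.0159 (two-sided, the smallest that relabelling these libraries allows) and an adjusted p of 0.0397 over 5 lists. Of the 7 CD8 T cell markers, 6 had a log2 fold change below 0 and 1, Thy1, above 0 (162 and 178 CPM). Only Cd8b1 passed the threshold (2247 to 1702 CPM, adjusted p 0.0428, edgeR), while Cd8a was at 719 and 716 CPM. Of the myeloid list, 7 of 10 genes exceeded 1 CPM on average. Its sum ranged from 161.8 to 197.6 CPM over the controls and from 113.9 to 123.8 CPM over DKO, and its members differed in direction. Ctss (81.2 to 51.3 CPM, adjusted p 0.00734, edgeR) and Cd68 (29.2 to 16.8 CPM, adjusted p 0.0138) fell, and Itgam was at 58.9 and 38.1 CPM (adjusted p 0.148). Lyz2 was at 2.43 and 5.85 CPM (log2 fold change 1.27, adjusted p 0.206) and Csf1r at 1.84 and 2.37 CPM. Fcer1g and Adgre1 were below 2 CPM in both groups, Mpeg1 and S100a9 below 1 CPM, and S100a8 had 0 counts in every control library. Of the B cell list, 3 of 8 genes exceeded 1 CPM on average, and the list ranged from 183.4 to 270.1 CPM in control and from 190.9 to 214.0 CPM in DKO, nearly all of it Ighm, with Pax5 at 0 in every library. The erythroid and platelet list (5 of 7 genes above 1 CPM, 10.5 to 35.5 CPM in control and 16.0 to 53.9 CPM in DKO) and the CD4 T cell list (2 of 4 genes, 30.7 to 39.3 and 34.6 to 46.6 CPM) overlapped between the groups. Their exact permutation p were 0.333 for B cell, 0.556 for erythroid and platelet, and 0.0635 for CD4 T cell genes. The part of these cell type markers in the results below was not tested.

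The D type cyclin genes, which start G1, were examined first. Ccnd3 (ENSMUSG00000034165.16, plus strand of chromosome 17, 47505051 to 47599691 in GRCm38) encodes cyclin D3, the main D cyclin of dividing lymphocytes. It was at 586, 653, 599 and 614 CPM in control replicates 1 to 4 and at 988, 868, 866, 869.6 and 976 CPM in DKO replicates 1 to 5. Every DKO library stood above every control library, and the spread within either group was small beside the gap. On the log2 scale the difference was 0.58 (SE 0.07, adjusted p 0.00289, edgeR), or 1.49 times the control mean. Ccnd2 (minus strand of chromosome 6, 127125162 to 127152193), which encodes cyclin D2, was at 419.6, 411, 404 and 326 CPM in control and at 524, 499, 478, 553 and 493 CPM in DKO. The groups did not overlap here either, with control replicate 4 well below the other controls. The difference was 0.39 on the log2 scale (SE 0.09, adjusted p 0.0407, edgeR). Per kilobase of merged exons, Ccnd3 had 69.8 CPM and Ccnd2 41.5 CPM in control, while Ccnd1 had 0.0369 CPM.

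The kinase partners and E type cyclins of G1 did not pass the threshold in edgeR with all 9 libraries. Cdk4, which pairs with the D cyclins, averaged 183.9 and 211 CPM in the control and DKO libraries (log2 fold change 0.20, adjusted p 0.281, edgeR). Its relative Cdk6 was at 32.7 and 27.9 CPM (-0.23, adjusted p 0.351). The libraries of both groups overlapped for each of these kinases. Ccne1 (52.3 and 59.7 CPM, adjusted p 0.276) and Ccne2 (5.23 and 9.44 CPM, adjusted p 0.163) encode the E cyclins, and Cdk2 (51.6 and 46.5 CPM, adjusted p 0.450) encodes their kinase. Cdc25a, whose product removes the inhibitory phosphate from CDK2, was at 20.98 and 27.4 CPM (0.39, adjusted p 0.114). Over these 9 genes of the D and E cyclins, their kinases and Cdc25a, 2 rose in edgeR, and the median log2 fold change of the 8 tested was 0.29, where it was -0.01 over all tested genes. DESeq2's Wald test called 4 of them as higher, with Ccne2 (adjusted p 0.0454) and Cdc25a added. In edgeR, Cdk4 passed without control replicate 1 (adjusted p 0.0358) and Ccne2 without control replicate 2 (adjusted p 0.0276). Cdk6, Ccne1 and Cdk2 passed in none of the fits.

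Among the CDK inhibitors, which brake the G1 kinases, 1 of 6 passed the threshold. Cdkn2c (minus strand of chromosome 4, 109660876 to 109667189) encodes an inhibitor of CDK4 and CDK6. It was at 29.2, 28.1, 23.6 and 26.9 CPM in control and at 40.3, 34.5, 41.2, 40.1 and 48.0 CPM in DKO. All DKO libraries were above all controls, with a log2 difference of 0.60 (SE 0.11, adjusted p 0.0154, edgeR). Cdkn1b, whose product binds CDK2 and is known for holding T cells in G1, was at 42.2, 26.0, 29.6 and 21.6 CPM in control and at 22.5, 25.1, 24.6, 24.3 and 16.2 CPM in DKO. Its groups overlapped (log2 fold change -0.40, adjusted p 0.326, edgeR). Cdkn1a, a target of p53, was at 3.99 and 5.07 CPM on average (adjusted p 0.589). Cdkn2d, the most abundant inhibitor per kilobase at 130.5 (control) and 146.0 (DKO) CPM, had an adjusted p of 0.569. The 2 inhibitor genes of the Cdkn2a locus were low: Cdkn2a was at 0.701 and 0.598 CPM (adjusted p 0.783) and Cdkn2b at 1.99 and 1.51 CPM (adjusted p 0.420).

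The 13 E2F factors, DP partners and pocket proteins gave 0 calls in edgeR, 5 genes with an unadjusted p under 0.05, all higher, and 1 call (E2f7) in DESeq2. E2f7 and E2f8 encode repressors that are themselves made late in G1 and S phase and shut E2F targets down. E2f7 was at 0.495, 1.86, 2.94 and 1.16 CPM in control and at 5.69, 3.13, 4.06, 3.57 and 9.10 CPM in DKO. The groups did not overlap, but the values within each ranged widely, and the log2 fold change of 1.66 had an SE of 0.46 (adjusted p 0.0898, edgeR). E2f8 was at 0.825, 4.03, 4.29 and 2.73 CPM in control and at 6.29, 3.78, 6.73, 7.05 and 13.4 CPM in DKO. Here DKO replicate 2 lay inside the control range (log2 fold change 1.33, SE 0.44, adjusted p 0.158). The activator gene E2f2 was at 88.1, 128, 125 and 125 CPM in control and at 143, 134, 148, 140.2 and 193 CPM in DKO, with no overlap (0.38, adjusted p 0.192). E2f1, another activator, was at 5.30 and 8.55 CPM on average and overlapped (0.69, adjusted p 0.312), as did E2f3 at 5.64 and 8.37 CPM (0.57, adjusted p 0.187). The repressor gene E2f4, the most abundant E2F gene per kilobase at 84.0 and 91.4 CPM, differed by 0.12 (adjusted p 0.412). E2f5, E2f6, Tfdp1 and Tfdp2 lay between -0.24 and 0.22, with adjusted p of 0.341 to 0.891.

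The pocket protein genes turned on 1 control library. Rb1 was at 45.17, 80.1, 103 and 78.8 CPM in control and at 64.04, 68.8, 66.3, 61.8 and 75.0 CPM in DKO. Control replicate 1 was the lowest of the 9 libraries and the other 3 controls were the highest (log2 fold change -0.19, adjusted p 0.661, edgeR). Without that library the log2 fold change was -0.39 and the adjusted p 0.0397. Rbl2 was at 148, 308, 325 and 299.6 CPM in control and at 264, 290.5, 289, 268 and 248 CPM in DKO, again with control replicate 1 far below the rest. Its log2 fold change was 0.01 (adjusted p 0.987) and, without control replicate 1, -0.21 (adjusted p 0.0860). Rbl1 was at 81.3, 116, 134 and 116 CPM in control and between 107.9 and 111.8 CPM in DKO (-0.02, adjusted p 0.948).

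The genes linked with exit from the cycle gave 1 call among 4. Btg2 (minus strand of chromosome 1, 134075170 to 134079120) encodes an antiproliferative protein that works with mRNA deadenylation. It was at 438, 585, 569 and 511 CPM in control and at 745, 731, 727, 660.2 and 686 CPM in DKO. The groups did not overlap, with a log2 difference of 0.43 (SE 0.09, adjusted p 0.0312, edgeR). Its relative Btg1, at 235.5 CPM per kilobase in control the most abundant of the 59 genes on that scale, was at 1242 and 1209 CPM (-0.04, adjusted p 0.860). Ccng2, the gene of a cyclin that accumulates in arrested cells, was at 265, 305, 305 and 246 CPM in control and at 364, 363, 351, 307 and 359 CPM in DKO. The groups did not overlap, though DKO replicate 4 was close to the controls (0.32, adjusted p 0.0959). Ccng1, a p53 target, was at 261.8 and 284 CPM (0.12, adjusted p 0.668).

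Among the S, G2 and M phase members every log2 fold change was above 0. Of these 14 genes, 6 rose in DKO in edgeR, and 10 had groups that did not overlap, all 10 with DKO higher, against 4.62% of all tested genes. Their median log2 fold change was 1.07. Over the 32 G1 members, 31 of them tested, it was 0.19, with 4 that rose, 21 above 0 and 10 below 0, and 7 with groups that did not overlap. The difference between the role groups was not tested. Promoter sequences are shown for the S, G2 and M phase genes that rose, other than Ccna2, which had no entry. The reason is that late cell cycle genes are known for a cell cycle homology region (CHR). The DREAM complex and B-MYB read it, next to CCAAT boxes bound by NF-Y. Each is 300 bases from RefSeq on GRCm38.p6, printed 5′ to 3′ on the gene's strand from 250 bases before the start site to 50 bases from it. Capitals mark words found on either strand. The CHR was searched as TTTGAA. The box of NF-Y was searched with its 5 letters, CCAAT. Sites of E2F factors were searched as TTTCCCGC, as TTTCGCGC, as TTTGCCGC and as TTTGGCGC. No 2 capital words overlap in these sequences.
Cdk1 (chr10:69352863-69353162, minus strand): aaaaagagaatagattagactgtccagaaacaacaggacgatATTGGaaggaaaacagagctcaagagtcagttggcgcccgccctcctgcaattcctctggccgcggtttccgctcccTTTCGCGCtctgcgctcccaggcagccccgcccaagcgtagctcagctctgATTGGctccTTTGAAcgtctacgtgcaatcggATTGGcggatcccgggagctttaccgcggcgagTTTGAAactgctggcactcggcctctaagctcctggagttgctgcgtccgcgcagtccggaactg
Ccnb2 (chr9:70421505-70421804, minus strand): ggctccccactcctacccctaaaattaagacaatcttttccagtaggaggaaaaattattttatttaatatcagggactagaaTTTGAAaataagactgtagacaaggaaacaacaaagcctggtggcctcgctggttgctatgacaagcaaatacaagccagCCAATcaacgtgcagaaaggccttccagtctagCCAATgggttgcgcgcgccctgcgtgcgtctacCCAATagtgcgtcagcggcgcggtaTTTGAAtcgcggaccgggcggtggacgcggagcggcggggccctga
Cks1b (chr3:89418242-89418541, minus strand): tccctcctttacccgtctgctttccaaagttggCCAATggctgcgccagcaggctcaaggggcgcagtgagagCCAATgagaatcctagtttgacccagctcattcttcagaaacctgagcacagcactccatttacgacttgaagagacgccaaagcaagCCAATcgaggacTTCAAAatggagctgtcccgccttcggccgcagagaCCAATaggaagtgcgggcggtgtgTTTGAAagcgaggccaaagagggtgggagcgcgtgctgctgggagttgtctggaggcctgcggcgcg
Cdkn3 (chr14:46760291-46760590, plus strand): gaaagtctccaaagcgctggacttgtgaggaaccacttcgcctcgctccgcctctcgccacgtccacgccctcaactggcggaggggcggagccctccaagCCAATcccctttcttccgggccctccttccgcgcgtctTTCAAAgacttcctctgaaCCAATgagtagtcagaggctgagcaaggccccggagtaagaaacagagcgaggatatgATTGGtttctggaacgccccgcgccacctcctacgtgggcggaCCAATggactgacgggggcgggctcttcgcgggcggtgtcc
Mybl2 (chr2:163054385-163054684, plus strand): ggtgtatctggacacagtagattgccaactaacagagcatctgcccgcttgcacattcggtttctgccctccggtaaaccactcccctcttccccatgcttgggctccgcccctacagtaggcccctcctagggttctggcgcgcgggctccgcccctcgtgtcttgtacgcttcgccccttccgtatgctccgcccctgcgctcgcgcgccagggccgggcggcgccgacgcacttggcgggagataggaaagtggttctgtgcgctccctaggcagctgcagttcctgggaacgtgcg

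In the promoters of Cdk1, Ccnb2 and Cks1b a TTTGAA word lies close to the RefSeq start site, at -15 to -10, 4 to 9 and -17 to -12, counted from 0 at the first base of the RefSeq transcript. In Cdkn3 it lies on the other strand at -111 to -106. Each of the 4 has between 3 and 4 CCAAT words, Cdk1 also holds an E2F word at -131 to -124, and the window of Mybl2 holds none of the words searched. The promoter table held 46 of the 59 genes with 54 promoters, 9 of them S, G2 and M phase members. TTTGAA was in 5 of these 9, in 5 of 34 promoters of G1 members, in 0 of 11 of the transcriptional group and in 17.9% of all 32851 promoters. Of the 10 promoters of genes that rose, 4 held it. Those of Ccnd3, Cdkn2c and Btg2, which are not shown, did not hold it, and Ccna2 and Ccnd2 had no entry. CCAAT was in 8 of 9, 15 of 34 and 5 of 11, and in 37.4% of all promoters. The E2F words were in 1 of 9, 9 of 34 and 0 of 11, and in 2.26% of all promoters. A match is a description of the sequence and not a bound site. The RefSeq starts used here differ from the gene spans printed below. That of Cks1b lies inside its span, and the window of Mybl2 ends before its span begins.

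Cdk1 encodes the mitotic kinase, and Ccna2, Ccnb1 and Ccnb2 encode cyclins that pair with it. Ccnb2 (ENSMUSG00000032218.7, minus strand of chromosome 9, 70407692 to 70421547), which encodes cyclin B2, was at 7.10, 17.6, 13.3 and 13.4 CPM in control and at 28.0, 18.3, 37.9, 36.8 and 69.8 CPM in DKO. All DKO libraries were above all controls, but DKO replicate 2 exceeded control replicate 2 by little and DKO replicate 5 stood far above the other DKO libraries. On the log2 scale DKO was higher by 1.57 (SE 0.36, adjusted p 0.0406, edgeR). Cdk1 (ENSMUSG00000019942.13, minus strand of chromosome 10, 69335146 to 69352938), the mitotic kinase itself, was at 11.9, 14.7, 11.4 and 11.3 CPM in control and at 21.8, 18.8, 24.2, 29.9 and 39.0 CPM in DKO. The control libraries were close together and the DKO libraries were spread more widely, all above the controls (log2 fold change 1.12, SE 0.20, adjusted p 0.0140, edgeR). Ccnb1, which encodes the other B cyclin, was at 6.36, 11.8, 9.33 and 8.02 CPM in control and at 13.2, 11.2, 15.6, 16.5 and 27.2 CPM in DKO. DKO replicate 2 fell just below control replicate 2, and the test was not passed (0.91, SE 0.26, adjusted p 0.0951).

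Ccna2 (ENSMUSG00000027715.9, minus strand of chromosome 3, 36564865 to 36572150) encodes cyclin A2, which acts in S phase and G2. It was at 5.43, 15.3, 12.7 and 10.04 CPM in control and at 22.4, 18.4, 28.8, 34.7 and 53.6 CPM in DKO, with no overlap. On the log2 scale DKO was higher by 1.54 (SE 0.34, adjusted p 0.0370, edgeR). This value depends on how overlapping genes are counted. The exons of Ccna2 share 510 bases, 12.5% of their length, with Exosc9 on the opposite strand, and reads there belong to neither gene in the unstranded column. Summing the strand columns added 9244 such reads to the 10185 of the unstranded column. The sum gives shared reads to both genes, and Exosc9 went from 15437 to 24681 counts. Which gene each shared read came from cannot be told, so the summed values may include reads of Exosc9. The restored reads alone averaged 17.0 ± 3.28 CPM over the controls (SD, n = 4) and 22.6 ± 3.60 CPM over DKO (SD, n = 5), a ratio of 1.33, where the reads of Ccna2 outside the overlap had a ratio of 2.91. With the strand columns summed, Ccna2 was at 25.1, 29.0, 26.0 and 22.3 CPM in control and at 39.3, 34.8, 45.3, 53.4 and 75.05 CPM in DKO. The groups still did not overlap, the log2 fold change was 0.95 and the adjusted p 0.0300. Exosc9 itself, a subunit gene of the RNA exosome, was at 32.3 and 34.1 CPM in the unstranded column (0.08, adjusted p 0.789).

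**Figure D2:**
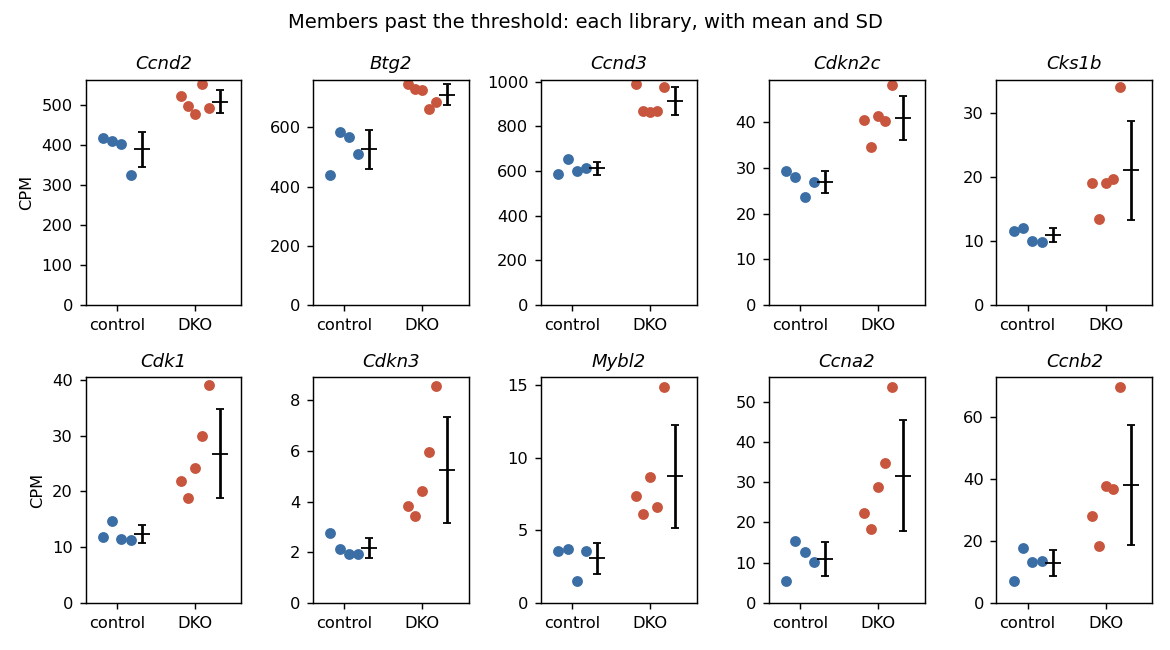
CPM (y axis, from 0) of the 10 genes past the threshold in each of the 4 control and 5 DKO libraries, with the mean and SD beside the points. For each gene every DKO library lies above every control library, and for the S, G2 and M phase genes the last DKO point, replicate 5, is the highest.

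Among the partners and regulators of CDK1, Cks1b and Cdkn3 rose. Cks1b (minus strand of chromosome 3, 89415472 to 89418383) encodes a small CDK subunit that also serves in the destruction of the Cdkn1b protein. It was at 11.6, 12.1, 10.1 and 9.81 CPM in control and at 19.0, 13.4, 19.0, 19.6 and 33.9 CPM in DKO, so that DKO was higher by 0.95 on the log2 scale (SE 0.22, adjusted p 0.0477, edgeR). DKO replicate 2 was again the lowest DKO library. Cdkn3 (plus strand of chromosome 14, 46760541 to 46771669), which despite its symbol encodes a phosphatase that acts on CDKs and is made in G2 and M phase, was at 2.77, 2.12, 1.95 and 1.92 CPM in control and at 3.84, 3.44, 4.43, 5.94 and 8.57 CPM in DKO. No library of one group fell within the other (1.26, SE 0.28, adjusted p 0.0356, edgeR). Cks2, the relative of Cks1b, was at 14.5 and 20.04 CPM without overlap (0.47, adjusted p 0.0898), and Ccnf, which encodes a cyclin that targets proteins for destruction in G2, was at 14.4 and 29.1 CPM without overlap (1.02, adjusted p 0.107).

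The phosphatases and kinases that time the entry into mitosis gave no call in edgeR. Cdc25b was at 217, 352, 364 and 318 CPM in control and between 405.7 and 436.4 CPM in DKO, with no overlap. Control replicate 1 was the low value, and the log2 fold change was 0.45 with it (adjusted p 0.102) and 0.30 without it (adjusted p 0.0153). Cdc25c was at 0.371, 1.12, 1.59 and 1.34 CPM in control and at 1.96, 1.71, 2.84, 2.51 and 7.41 CPM in DKO (1.57, SE 0.50, adjusted p 0.132). The groups did not overlap, but the lowest library held 18 counts of this gene. The genes of the inhibitory kinases, Wee1 at 15.4 and 21.4 CPM (0.47, adjusted p 0.209) and Pkmyt1 at 19.9 and 25.5 CPM (0.36, adjusted p 0.171), overlapped between the groups.

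Of the 2 transcription factor genes that drive the late program, 1 passed. Mybl2 (plus strand of chromosome 2, 163054687 to 163084688) encodes B-MYB. It was at 3.55, 3.70, 1.48 and 3.61 CPM in control and at 7.37, 6.11, 8.66, 6.63 and 14.9 CPM in DKO, so that DKO was higher by 1.50 on the log2 scale (SE 0.32, adjusted p 0.0345, edgeR). All DKO libraries were above all controls, with control replicate 3 the lowest. Foxm1 was at 3.05, 11.1, 13.9 and 9.11 CPM in control and at 20.8, 12.7, 18.6, 19.1 and 35.1 CPM in DKO. DKO replicate 2 lay within the control range, and control replicate 1 was far below the other controls (1.19, SE 0.38, adjusted p 0.137).

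Within DKO, most late genes had their highest and lowest values in the same libraries, while the order of the controls differed more between genes. DKO replicate 5 was the highest of the 9 libraries for 12 of the 14 S, G2 and M phase members, and DKO replicate 2 was the lowest DKO library for 11. Control replicate 1 was the lowest of all 9 for 7 but the highest control for 3. Their summed CPM was 327, 509, 512 and 446 in control replicates 1 to 4 and 666, 622, 690.4, 684 and 815 in DKO replicates 1 to 5. The 2 groups of sums did not overlap, but Cdc25b, which did not pass, made up 49.8 to 71.4% of each sum, and DKO replicate 5 was its lowest DKO library. Without Cdc25b, left out after its values were seen, the other 13 summed to 110.3, 157, 148 and 127 CPM in control and to 236, 185, 254, 259 and 409 CPM in DKO, again without overlap. The median coefficient of variation within DKO was 36.8% for these genes, 8.91% for the 32 G1 members and 5.34% for the transcriptional cyclins and CDKs. Within control it was 24.2%, 17.0% and 11.6%. Without DKO replicate 5, Ccnb2 (log2 fold change 1.23, adjusted p 0.0693, edgeR) and Ccna2 (1.26, adjusted p 0.0714) no longer passed. Mybl2 and Cdkn3 did not pass either. This was not particular to that library. Ccna2 and Ccnb2 were also lost without DKO replicate 1, 3 or 4, and without control replicate 3 or 4.

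**Figure D3:**
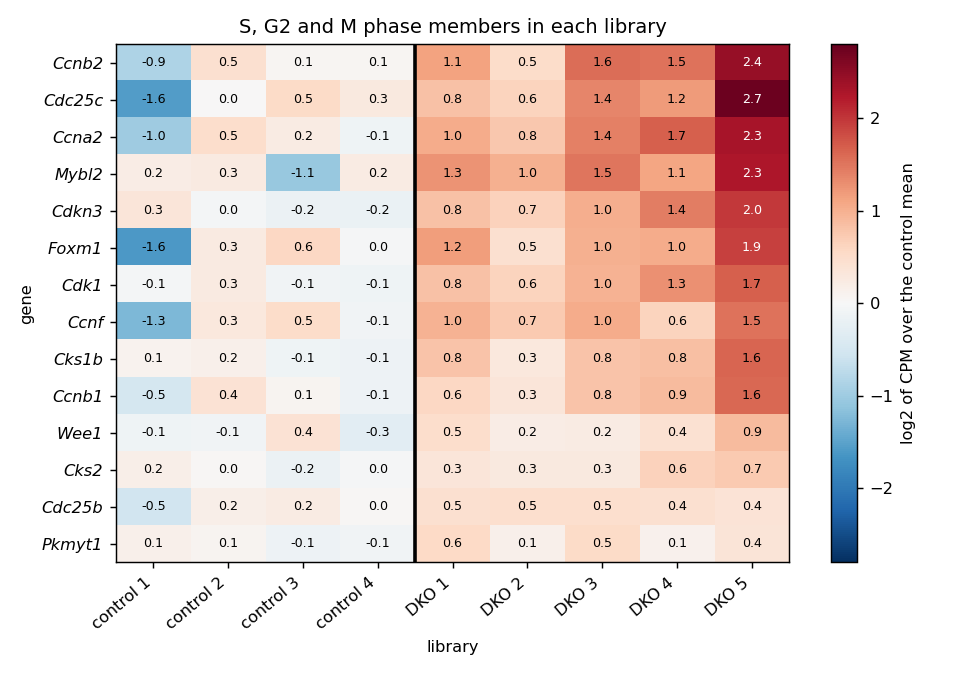
Log2 of the CPM over the control mean for the 14 S, G2 and M phase members (rows) in the 4 control and 5 DKO libraries (columns), with red above and blue below the control mean. DKO 5 is the highest library for 12 of the 14 genes, and DKO 2 is the lowest DKO library for 11.

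The cyclins and CDKs known for transcription served as a contrast. Ccnh with Cdk7, whose products also activate the cell cycle CDKs, Ccnt1 and Ccnt2 with Cdk9, Ccnk with Cdk12 and Cdk13, and Ccnc with Cdk8 act in transcription by RNA polymerase II, and Ccnl1 and Ccnl2 in splicing. Of these 12, 0 passed in edgeR and 0 in DESeq2, and 1, Ccnt1, had an unadjusted p under 0.05 (73.7 and 83.3 CPM, log2 fold change 0.18, adjusted p 0.301). For 0 of the 12 were the groups without overlap. Their median log2 fold change was 0.05, and the smallest adjusted p was 0.301. Cdk5, an atypical kinase known from neurons, was at 46.0 and 41.9 CPM (-0.14, adjusted p 0.509).

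Genes on opposite strands share exon positions for many of these loci, so the strand columns were compared with the unstranded column. The strand columns summed to over 3% more than the unstranded count for 18 of the 59 genes. The sum counts shared reads for both genes, so it is not the level of 1 gene alone. The largest ratio was that of Ccnd1, at 5.91, which shares 1100 bases with LTO1. Its 75 unstranded counts were those assigned to Ccnd1 alone. The 368 shared ones cannot be assigned with certainty, since LTO1 held 17887 counts. Ccne2 followed at 2.91, with 609 bases shared with Ints8. Its log2 fold change was 0.85 in the unstranded column and 0.36 in the sum (adjusted p 0.163 and 0.211), and the 6679 restored reads had a ratio of 1.09 between the groups. Rb1, at 1.81, shares positions with Rcbtb2 and Lpar6, and its log2 fold change was -0.19 and -0.20. Thus adding the shared reads, whichever gene they came from, changed the size of the difference for Ccna2 and Ccne2. It left that of Rb1 within 0.01.

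Ccnd3 shares 361 bases with Bysl, a ribosome biogenesis gene on the opposite strand, and 109590 reads lay there. These shared reads averaged 190.5 ± 12.3 CPM over the controls (SD, n = 4) and 274.1 ± 17.3 CPM over DKO (SD, n = 5), a ratio of 1.44, near the 1.49 of the reads that belong to Ccnd3 alone. Ccnd3 therefore kept its call in the sum (log2 fold change 0.56, adjusted p 0.00252). Bysl was at 44.7 and 51.4 CPM in the unstranded column (0.20, adjusted p 0.336) and at 215.9 and 298 CPM in the sum (0.46, adjusted p 0.00800), so its call appears only where it is given the reads it shares with Ccnd3. Cdk4 shares 641 bases with Tspan31, and its log2 fold change was 0.20 in the unstranded column and 0.12 in the sum. E2f8 had a log2 fold change of 1.33 by both counts, while Gm2788, a noncoding transcript on its opposite strand, fell in the unstranded column (2.40 to 0.679 CPM, -1.82, adjusted p 0.0279) and was at -0.39 in the sum (adjusted p 0.591). Over the 59 genes, 9 of the 10 calls remained in the sum, where 2.88% of 16250 genes were called, 1.30% as higher, and Ccnd2 had an adjusted p of 0.0539.

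**Figure D4:**
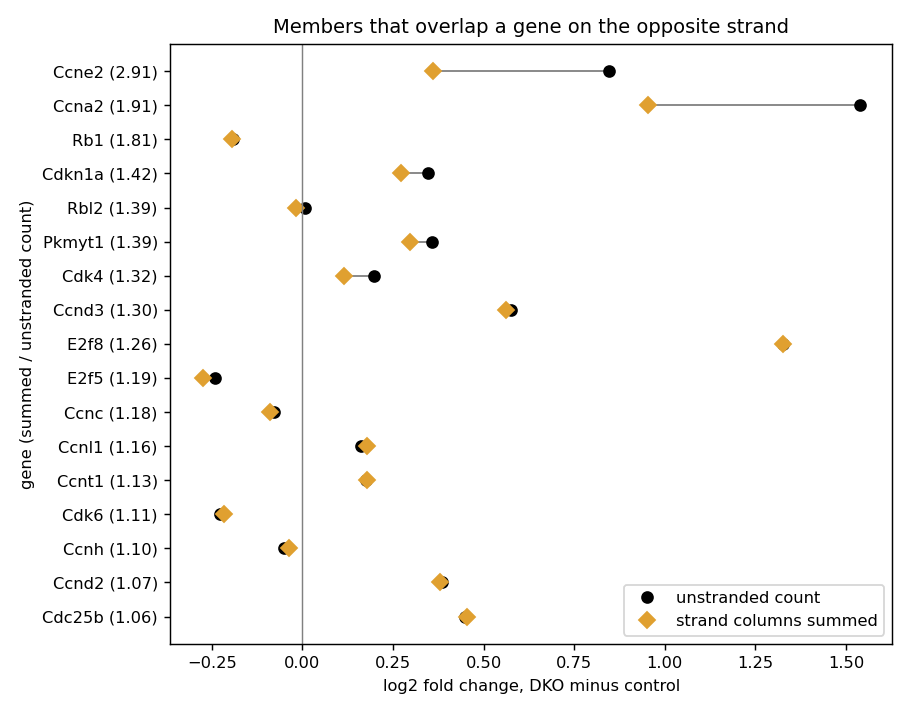
Log2 fold change (x axis) of the 17 tested members whose summed strand columns exceed the unstranded count by over 3%, by the unstranded count (circles) and by the sum (diamonds); the ratio of the counts stands beside each name. Ccne2 and Ccna2 move most, from 0.85 to 0.36 and from 1.54 to 0.95, and Ccnd3 stays at 0.58 and 0.56.

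Other genes of the cycle were counted by list, beside the 1.32% of all tested genes called higher, and the lists were not tested against each other. The lists were chosen with earlier results of these data known, so their counts are a description and not independent support. Of 12 mitotic kinases and guardians of cohesion, 10 rose in DKO in edgeR, among them Sgo1 (2.24 ± 1.15 to 10.5 ± 3.98 CPM, log2 fold change 2.22, adjusted p 0.00823), Bub1b (6.51 ± 2.87 to 23.6 ± 9.81 CPM, 1.85, adjusted p 0.0188) and Plk4 (19.9 ± 2.64 to 35.7 ± 4.17 CPM, 0.84, adjusted p 0.00463). The others were Plk1, Aurkb, Bub1, Mastl, Ttk, Pbk and Haspin, with log2 fold changes of 0.46 to 2.14, while Aurka (0.98, adjusted p 0.0752) and Nek2 (1.45, adjusted p 0.0721) did not pass. Of 23 genes of the ubiquitin ligases APC/C and SCF, 2 rose, Cdc20 (14.5 ± 1.16 to 33.5 ± 10.8 CPM, adjusted p 0.0104) and Ube2c (7.96 ± 1.53 to 22.1 ± 11.7 CPM, adjusted p 0.0370), and 0 fell. Both act in mitosis. The median log2 fold change was 1.46 for the mitotic kinase list and 0.11 for the ligase list.

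Genes of p53 and its targets, and those that encode the MuvB core of the DREAM complex, did not pass in edgeR. Of 20 genes of p53 and its targets, 19 were tested and 0 passed in edgeR or DESeq2, with 1 higher and 2 lower at an unadjusted p under 0.05 and a median of -0.03. Of the 5 genes of the MuvB core, 0 passed in edgeR and 1 in DESeq2. In this list, chosen after their values were seen, Lin54 (28.2 and 39.2 CPM, adjusted p 0.106) and Lin9 (26.6 and 32.8 CPM, adjusted p 0.159) had an unadjusted p under 0.05 and groups without overlap. Of 22 other cyclins and CDKs, 17 were tested and 0 passed in edgeR, with 2 higher and 2 lower at an unadjusted p under 0.05, and 1 passed in DESeq2, as lower.

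The calls rested on single libraries to different degrees. Ccnd3 passed without each of the 9 libraries (adjusted p 0.00132 to 0.0129, edgeR). Cdk1 and Cdkn2c passed without each library other than control replicate 4, where their adjusted p were 0.0542 and 0.0518. Leaving out control replicates 1, 2, 3 and 4 in turn kept 10, 5, 5 and 1 of the 10 calls, and leaving out DKO replicates 1 to 5 in turn kept 3, 8, 3, 3 and 4. Without both control replicates 1 and 3 it was 4, namely Btg2, Ccnd2, Ccnd3 and Cdkn2c. The log2 fold changes of the 10 stayed above 0 in each of these fits, and that of Ccna2 ranged from 0.95 to 1.75 over 15 alternatives. With the replicate number as a block it was 1.32, and none of the 10 passed (adjusted p of Ccnd3 0.0676, edgeR). Replicate number 5 is present in DKO only, so in that fit DKO replicate 5 adds nothing to the difference between the groups.

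**Figure D5:**
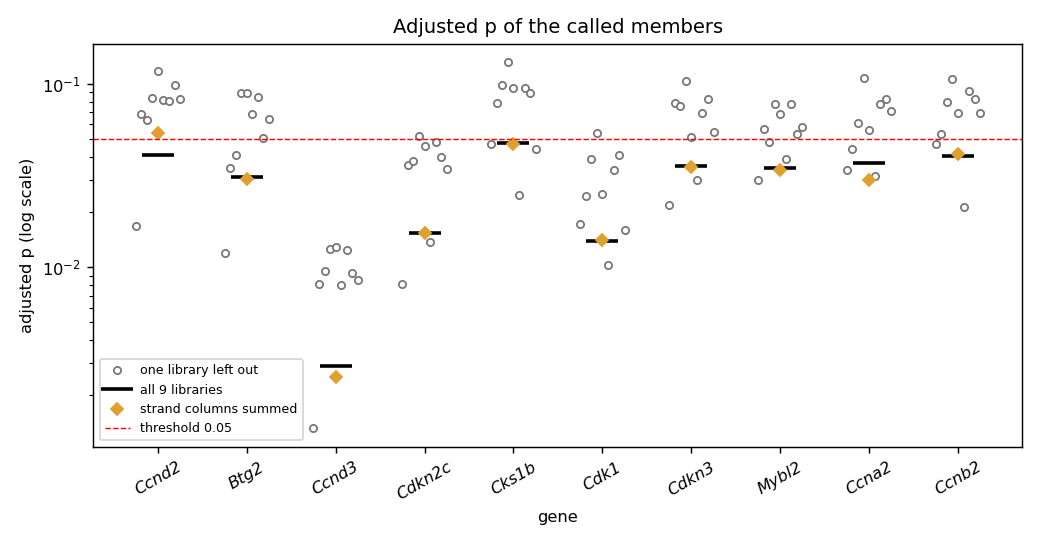
Adjusted p (y axis, log scale) of the 10 called genes with all 9 libraries (bars), with 1 library left out (open circles) and with the strand columns summed (diamonds); the dashed line is the threshold of 0.05. All points of Ccnd3 lie below the line, and Ccnd2 lies above it in 8 of 9 fits with a library left out.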

How the data were processed

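Gene counts of 9 libraries were analysed. The labels' protocols name polyA RNA, a Qiagen RNeasy extraction, and the kits Takara Smartseq v4 and Illumina Nextera Flex. STAR 2.7.8a, Trim Galore 0.6.0 and the build mm10 come from the submitters' processing notes. The annotation behind the counts is not given in the sources used here. In STAR's layout the authors deposited whole-number counts, unstranded and for each strand. The first strand column held 49.9 to 50.1% of the strand counts, and the unstranded column was tested. STAR counts reads that map to 1 place, so genes with close copies (Ccnb1, Ccnb2, Ccnd3 and Btg1 have annotated copies) are uncertain. Of 55471 identifiers, 55230 were found in GENCODE M21 (GRCm38). The summary lines above the genes stayed out of the totals: 10.3 to 16.7% of a library's reads were unmapped, multimapping 5.80 to 6.79%, no feature 4.01 to 5.20% and ambiguous 4.97 to 5.31%.

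The test was that of edgeR 4.0.16 under R 4.3.3 (robust quasi-likelihood F-test, TMM scaling), after filterByExpr with a minimum count of 10, with Benjamini-Hochberg adjustment over 14918 genes at 0.05. CPM are counts over TMM-scaled totals. Alternatives used DESeq2 1.42.0. On simulated data made from these libraries over 14918 genes, DKO against control, the test recovered 16.0%, 68.0% and 94.0% of genes changed by 0.5, 1 and 2 on the log2 scale, with 3.15% false calls. Marker lists were compared by exact permutation. The members, lists and tests were chosen with earlier results of these data known. The naming rule took members past the threshold, members without overlap between groups and listed genes of each role. Other members with values (Cdc25a, Cdkn2b, E2f3, E2f4, Ccng1, Wee1, Pkmyt1, Ccnt1 and Cdk5) were named after their values were seen. Leaving out control replicates 1 and 3 together was chosen after seeing the data. Figures were drawn with matplotlib 3.10.9.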

Additional observations from a re-analysis of the deposited data

Results flagged for a closer look

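In 116 groups of CPM values of the tested members (control and DKO apart), the highest or lowest library was tested for a gap to its nearest neighbour that is large for the group's range (Dixon's test), which chance alone passes in about 1 in 20 groups. It passed in 9. In DKO replicate 5, Cdc25c was at 7.41 CPM (others 1.71 to 2.84), E2f2 at 192.5 CPM (others 134.1 to 148.2), Tfdp1 at 75.3 CPM (others 61.0 to 63.0) and Cdkn1b at 16.2 CPM (others 22.5 to 25.1). In DKO replicate 4, Ccng2 was at 306.8 CPM (others 350.9 to 364.2). In control replicate 1, Rbl2 was at 148.5 CPM (others 299.6 to 324.7) and E2f2 at 88.1 CPM (others 125.1 to 128.2). Ccnd2 was at 325.9 CPM in control replicate 4 (others 404.0 to 419.6), and Mybl2 at 1.48 CPM in control replicate 3 (others 3.55 to 3.70). The cause of these values was not tested.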

How the results depend on the processing

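The 10 genes past the threshold were called again with DESeq2 size factors in edgeR, without a count filter, with a stricter filter (1 CPM in 4 libraries) and by DESeq2's Wald test. DESeq2 called more: 19 members as higher, 11 of the S, G2 and M phase and 8 of G1, and 1010 genes in all. Leaving out 1 library gave 1 to 13 members called higher and 0 to 1 called lower (Rb1, without control replicate 1), with 0 to 8 of the S, G2 and M phase, 1 to 6 of G1 and 179 to 749 of all genes. Without control replicates 1 and 3 together, chosen after seeing the data, 5 members were called higher, 1 of them of the S, G2 and M phase. With the replicate number as a block, 0 members, 0 of the S, G2 and M phase, 0 of G1 and 67 of all genes passed, and Ccnd3 had an adjusted p of 0.0676. Since number 5 is present in DKO only, DKO replicate 5 adds nothing to the difference between the groups in that fit. The labels do not say what a replicate number shares. Same-numbered libraries had correlations of their deviations from -0.12 to 0.01, and whether the libraries were paired was not tested. Transcriptional cyclins and CDKs gave 0 calls in every setting.

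Direction was compared over the settings only for the members that the naming rule took. Among these it changed for members close to 0 only. Rbl2 was at -0.0041 with the stricter filter, -0.019 with the strand columns summed, -0.17 without control replicates 1 and 3, and -0.21 to 0.11 with 1 library left out. Rbl1 was at 0.0016 and Btg1 at 0.0089 with the block, and at -0.16 to 0.075 and -0.072 to 0.0047 with 1 library left out. The cause was not tested. Depth limits Ccnd1 (75 counts) and Cdkn2a (297 counts over all libraries).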
